A study of Mus musculus with 4 samples.

Results

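The interferon-inducible GTPases described here are 10 genes of 55536 in the count tables, found by the symbols of their Ensembl identifiers: the guanylate-binding protein (GBP) genes Gbp2, Gbp3, Gbp5 and Gbp7, and the immunity-related GTPase (IRG) genes Irgm1, Irgm2, Igtp, Iigp1, Tgtp1 and Tgtp2. RNA came from primary fibroblasts of C57BL/6 mouse ear clippings, kept for 48 hours with KN93, a blocker of the calcium/calmodulin-dependent kinase CaMKII, and then transfected for 24 hours. The 4 groups were the fibrillarin pulldown of AF357425-High cells, the fibrillarin pulldown of AF357425-Low cells, whole-cell RNA of AF357425-High cells and whole-cell RNA of AF357425-Low cells, with 1 library in each. AF357425 is a C/D box small nucleolar RNA, and fibrillarin is the methyltransferase that such RNAs guide. The sample characteristics call the states overexpression (High) and inhibition (Low), whereas the treatment protocol speaks of gapmers, which are antisense oligonucleotides, against AF357425 or with a scrambled sequence; the groups follow the titles. Which transfection each state received, and how many animals or cultures stand behind a library, was not given in the sources used here.

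GBPs and IRGs are GTPases of cell-autonomous immunity: cells make them after interferon, and they gather on the membranes of intracellular pathogens and their vacuoles. GBPs self-assemble on such membranes, open them and feed inflammasomes. IRGs divide into effectors, which coat and disrupt the vacuole (Iigp1, Tgtp1, Tgtp2), and regulators of the IRGM type, which sit on the cell's own organelles and hold the effectors inactive there (Irgm1, Irgm2, Igtp). Interferon-gamma acts at gamma-activated sites (GAS) of promoters, and type I interferon mainly at interferon-stimulated response elements (ISRE). Fibroblasts have receptors for both kinds of interferon.

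The promoters of these genes are shown first, since the letters of both elements can be read there. RefSeq promoters (GRCm38.p6) matched 9 of the 10 genes, all but Iigp1, and the stretches run 5′ to 3′ on the gene's strand with the letters that match GAAANNGAAA (ISRE) or TTCNNNGAA (GAS) on either strand in capitals.

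Gbp5 (chr3:142496739-142496808, plus strand): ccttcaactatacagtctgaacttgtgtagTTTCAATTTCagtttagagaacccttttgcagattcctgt
Gbp7 (chr3:142530253-142530322, plus strand): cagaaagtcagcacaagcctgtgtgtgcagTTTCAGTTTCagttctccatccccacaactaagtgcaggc
Gbp3 (chr3:142559975-142560043, plus strand): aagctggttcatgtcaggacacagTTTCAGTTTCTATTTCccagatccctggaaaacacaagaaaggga
Gbp2 (chr3:142620574-142620643, plus strand): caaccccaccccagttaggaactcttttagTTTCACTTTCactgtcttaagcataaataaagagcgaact
Irgm1 (chr11:48871421-48871474, minus strand): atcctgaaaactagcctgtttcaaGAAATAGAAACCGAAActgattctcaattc
Irgm2 (chr11:58214883-58214952, plus strand): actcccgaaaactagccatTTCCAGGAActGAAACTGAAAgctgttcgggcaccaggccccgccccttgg
Igtp (chr11:58199492-58199555, plus strand): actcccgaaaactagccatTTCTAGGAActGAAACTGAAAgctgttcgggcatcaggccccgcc
Tgtp1 (chr11:48992284-48992353, minus strand): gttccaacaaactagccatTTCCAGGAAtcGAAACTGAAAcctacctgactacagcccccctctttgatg
Tgtp2 (chr11:49064243-49064312, minus strand): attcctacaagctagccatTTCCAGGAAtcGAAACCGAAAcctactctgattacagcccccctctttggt

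In the 250 bases before the start, the ISRE letters were present in all 9 genes, against 978 of 32851 RefSeq windows of that length (2.98%). The GAS letters were present in 6 of the 9 (Gbp5, Gbp7, Irgm2, Igtp, Tgtp1 and Tgtp2), against 7.02% of windows; those of Gbp5 and Gbp7 lie outside the stretches shown or run past their edge, and no GAS match overlapped an ISRE match. Both sets of letters together were in these 6 genes and in 0.332% of windows. In Irgm2, Igtp, Tgtp1 and Tgtp2 the GAS letters stood upstream of the ISRE letters with 2 bases between them. In the 4 GBP genes the ISRE letters read TTTC first, the reverse orientation to the 5 IRG genes. Gbp3 and Irgm1 each held 2 overlapping ISRE matches; a second annotated start of Gbp3 had none. Counted by window, as the RefSeq shares are, 9 of 10 member windows held ISRE letters, 6 of 10 GAS letters and 6 of 10 both. The members were chosen as interferon-inducible genes, and several are paralogs with similar stretches, so these shares are no test. A match is a description of letters, not a site that was shown to be bound.

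The libraries held 25857770 and 27832061 gene-assigned reads for the pulldowns of AF357425-High and AF357425-Low cells, and 22082565 and 21693030 for their whole-cell RNA. Mitochondrial ribosomal RNA made up 63.4% and 59.8% of these pulldown reads, against 0.0926% and 0.0583% of the whole-cell reads. Levels are counts per 1e6 gene-assigned reads (CPM), and 3 reads, the upper limit that a count of 0 allows, are 0.116, 0.108, 0.136 and 0.138 CPM in the order of the libraries above. With 1 library a group there is no replicate check and no test between groups. Intervals are exact (Clopper-Pearson, 95%) and cover counting error alone, with no spread between cultures. They treat reads as independent. Reads copied by PCR and lacking molecular identifiers are not, so the intervals can be too narrow. A gene was measured where its mean over the libraries compared was at least 1 CPM, and it was called higher or lower where its whole interval lay beyond 2-fold. Levels were not adjusted for gene length and are compared here across libraries, not between genes.

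Between the fibrillarin pulldowns of AF357425-High and AF357425-Low cells, the question is which of the recovered RNAs differ with the state. The GTPase genes were higher in AF357425-High: 9 of 9 measured members passed the 2-fold line, where 3.43% of the 10736 genes measured did (368 genes). Their median log2 ratio was 3.13, an 8.72-fold difference, against a median of -0.01 over the 10736 genes. The lowest ratio was that of Irgm1, 1.98, and the highest that of Tgtp2, 4.48. Igtp had too few reads to be measured. All 9 measured members had at least 1 CPM in the AF357425-Low pulldown alone, so none entered through its high library only. Summed over the 10 genes, the level was 962 CPM (950 to 974) in the pulldown of AF357425-High cells and 124 CPM (120 to 128) in that of AF357425-Low cells, a 9.54-fold ratio (9.21 to 9.89). In bulk RNA, a smaller number of cells that make a transcript cannot be told apart from less of it per cell.

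**Figure D1:**
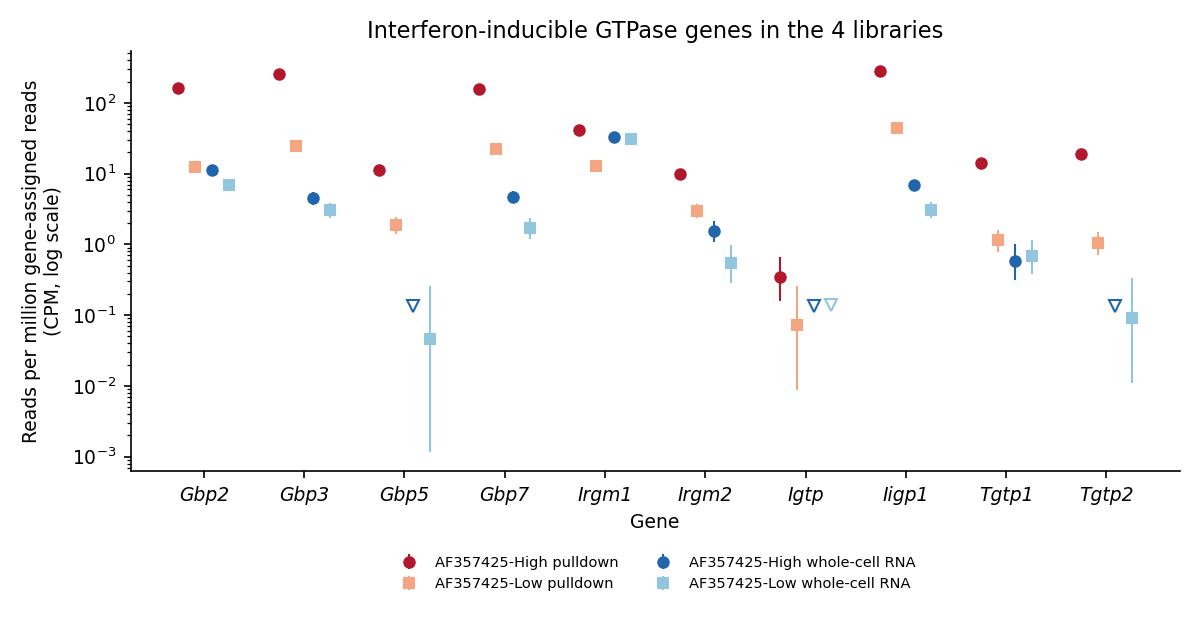
CPM (log axis) of each gene in the pulldowns of AF357425-High and AF357425-Low cells and in their whole-cell RNA, 1 library each, with 95% counting intervals as lines; open triangles mark 0 reads, drawn at the 3-read limit. The AF357425-High pulldown is the highest of the 4 libraries for all 10 genes, and the gap to the others is smallest for Irgm1 (41.5 CPM, against 33.0 CPM in AF357425-High whole-cell RNA).

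Among the GBP genes, Gbp2 (ENSMUSG00000028270), whose product coats the vacuole of Toxoplasma, had 162 CPM and 12.3 CPM in the pulldowns of AF357425-High and AF357425-Low cells, and 11.2 CPM and 6.82 CPM in their whole-cell RNA. The AF357425-High pulldown stood apart, and the other 3 libraries lay between 6.82 and 12.3 CPM. Its pulldown log2 ratio of 4.02 (3.86 to 4.18) ranked 24 of 10736. Gbp3 (ENSMUSG00000028268), another GBP recruited to that vacuole, had 259 CPM and 24.6 CPM in the pulldowns of AF357425-High and AF357425-Low cells, and 4.48 CPM and 3.04 CPM in their whole-cell RNA. Both pulldowns lay above both whole-cell libraries, and the pulldown log2 ratio was 3.69 (3.58 to 3.80).

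Gbp7 (ENSMUSG00000040253), linked to NADPH oxidase assembly in mouse macrophages, had 158 CPM and 22.2 CPM in the pulldowns of AF357425-High and AF357425-Low cells, and 4.71 CPM and 1.71 CPM in their whole-cell RNA. All 4 libraries were separate in their intervals, and the pulldown log2 ratio was 3.13 (3.0 to 3.25). Gbp5 (ENSMUSG00000105504), which promotes NLRP3 inflammasome activation, had 11.1 CPM and 1.87 CPM in the pulldowns of AF357425-High and AF357425-Low cells, and 0 reads and 1 read in their whole-cell RNA. It was thus seen almost only in the pulldowns, and its pulldown log2 ratio was 2.87 (2.44 to 3.33). The 4 GBP genes together had 590 CPM and 61.0 CPM in the pulldowns of AF357425-High and AF357425-Low cells, an 11.9-fold ratio (11.3 to 12.5).

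The regulatory IRG genes Irgm1 and Irgm2 had the lowest pulldown ratios among the measured members. Irgm1 (ENSMUSG00000046879), which acts on lysosomes and the Golgi and is needed for resistance to mycobacteria in mice, had 41.5 CPM and 12.9 CPM in the pulldowns of AF357425-High and AF357425-Low cells, and 33.0 CPM and 30.8 CPM in their whole-cell RNA. The AF357425-Low pulldown was the low library here, and the whole-cell intervals (30.6 to 35.5 CPM and 28.5 to 33.3 CPM) overlapped. Its pulldown log2 ratio was 1.98 (1.81 to 2.16). Irgm2 (ENSMUSG00000069874), a Golgi-located relative that restrains caspase-11, had 9.90 CPM and 2.98 CPM in the pulldowns of AF357425-High and AF357425-Low cells, and 1.54 CPM and 0.553 CPM in their whole-cell RNA. Its pulldown log2 ratio of 2.03 (1.66 to 2.4) had an interval that overlapped that of Irgm1.

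Igtp (ENSMUSG00000078853), also called Irgm3, a regulator on the endoplasmic reticulum and lipid droplets, had 9 and 2 reads in the pulldowns of AF357425-High and AF357425-Low cells, and is listed at 0 in both whole-cell libraries. Its pulldown log2 ratio was 2.57 with an interval of 0.30 to 5.82, below the minimum for a call. Genes near it were mixed. Mrpl22, a mitochondrial ribosomal protein gene, had 1 read in AF357425-Low whole-cell RNA and 0 elsewhere, and the IRG gene Gm12250 had 0 in all 4 libraries. Irgm2, on its other side, had 256 and 83 reads in the pulldowns of AF357425-High and AF357425-Low cells, and Cnot8 had 152 and 137. The low counts of Igtp are given as listed, and whether they reflect its level in the cells was not tested.

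Of the effector IRG genes, Iigp1 (ENSMUSG00000054072; GRCm38.p6 chromosome 18, 60373616 to 60392634), whose product loads first onto the Toxoplasma vacuole, had 287 CPM and 44.6 CPM in the pulldowns of AF357425-High and AF357425-Low cells, and 6.88 CPM and 3.09 CPM in their whole-cell RNA. All 4 libraries were separate in their intervals, and the pulldown log2 ratio was 2.98 (2.89 to 3.07). Tgtp1 (ENSMUSG00000078922) had 14.3 CPM and 1.15 CPM in the pulldowns of AF357425-High and AF357425-Low cells, and 0.589 CPM and 0.691 CPM in their whole-cell RNA. Its pulldown log2 ratio was 3.94 (3.41 to 4.51). Tgtp2 (ENSMUSG00000078921) had 18.9 CPM and 1.04 CPM in the pulldowns of AF357425-High and AF357425-Low cells, and 0 reads and 2 reads in their whole-cell RNA. Its pulldown log2 ratio of 4.48 (3.94 to 5.07) was the largest of the members, rank 14 of 10736.

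Tgtp1 and Tgtp2, both known as Irgb6, are close paralogs whose reads can be split or lost in counting, so their separate values are uncertain. As 1 sum they had 33.3 CPM and 2.19 CPM in the pulldowns of AF357425-High and AF357425-Low cells, a log2 ratio of 4.22 (3.84 to 4.62). The spans of Gbp2, Gbp3 and Tgtp1 overlap another RefSeq gene (Mir6381, Gm40158 and Gm42074), which makes their reads uncertain too, since the sources used here do not give the strand setting of the counting.

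In whole-cell RNA the same comparison asks how the transcript levels of the cells differ between the states. None of the 6 measured members (Gbp2, Gbp3, Gbp7, Irgm1, Irgm2 and Iigp1) passed the 2-fold line, which 0.111% of 13519 genes passed upward (15 genes) and 0.133% downward. All 6 ratios were above 0, with a median of 0.87, against -0.01 over all genes measured. By ratio, Irgm2 ranked 27 of 13519, Gbp7 29, Iigp1 82, Gbp2 346, Gbp3 636 and Irgm1 5747. Gbp7 had a log2 ratio of 1.40 (0.85 to 1.98; 104 against 37 reads), Irgm2 1.41 (0.43 to 2.50; 34 against 12 reads) and Iigp1 1.09 (0.67 to 1.53; 152 against 67 reads). Gbp2 had 0.65 (0.35 to 0.96; 248 against 148 reads) and Gbp3 0.49 (0.03 to 0.97; 99 against 66 reads). Irgm1, with 728 against 669 reads, had 0.03 (-0.12 to 0.18).

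Except for Irgm1, the whole-cell intervals of the measured members lay above 0 on counting error, and that of Irgm1 held 0. Irgm2 passed the minimum only through AF357425-High. At a 1.5-fold line, which 0.436% of genes passed upward, Gbp7 and Iigp1 were called higher; in the pulldown all 9 measured members passed that line, against 7.71% of genes. Gbp5, Igtp, Tgtp1 and Tgtp2 had too few reads to be measured; Tgtp1 had a log2 ratio of -0.30 (-1.49 to 0.87; 13 against 15 reads). The whole-cell sums over the 10 genes were 62.4 CPM (59.2 to 65.8) for AF357425-High cells and 46.9 CPM (44.0 to 49.9) for AF357425-Low cells, a 1.27-fold ratio (1.17 to 1.38).

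**Figure D2:**
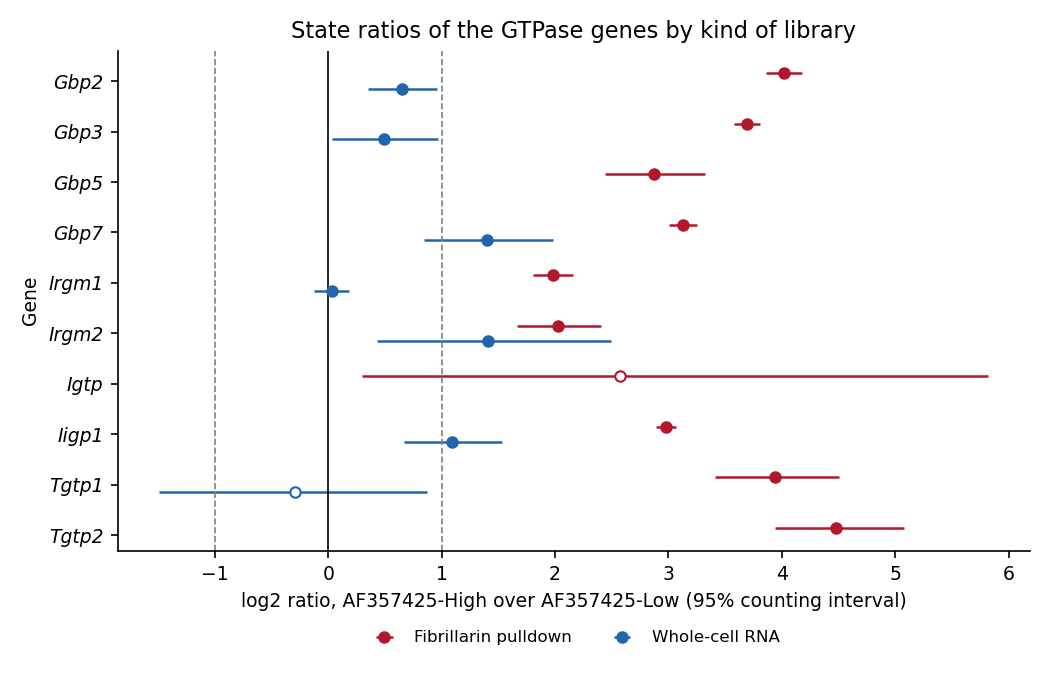
Log2 ratio of AF357425-High over AF357425-Low for each gene in the pulldown (red) and in whole-cell RNA (blue), with 95% counting intervals; dashed lines mark 2-fold and open symbols lie under the minimum for a call. The 9 filled pulldown points lie between 1.98 and 4.48 and the 6 filled whole-cell points between 0.03 and 1.41, with no whole-cell point for Gbp5, Igtp and Tgtp2.

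The difference between the 2 kinds of library was itself computed as the change of the state ratio, pulldown minus whole-cell RNA, for the 7 members with at least 10 reads in each library. It passed the 2-fold line upward in 6 of the 7, against 2.65% of 11356 genes. Tgtp1 had 4.23 (3.04 to 5.42), on 13 and 15 whole-cell reads, Gbp2 3.36 (3.03 to 3.70) and Gbp3 3.20 (2.73 to 3.66). Irgm1 had 1.95 (1.72 to 2.18), Iigp1 1.89 (1.46 to 2.31) and Gbp7 1.72 (1.17 to 2.28). Gbp7 missed the line under library totals, at 1.37, and under totals without mitochondrial ribosomal RNA, at 1.5. Irgm2 had 0.61 (-0.40 to 1.63), an interval that held 0. Since shared cultures were not stated, a culture difference between the kinds of library cannot be told apart from this change.

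Pulldown over whole-cell RNA within a state compares a transcript's share of the pulldown reads with its share of the whole-cell reads. The libraries include no mock pulldown. Recovery with fibrillarin therefore cannot be told apart from pulldown background or from the different preparation of the kinds of library. In AF357425-High, 8 of 9 measured members were higher in the pulldown, against 2.41% of 12773 genes, while 74.1% were lower and the median gene stood at -2.15. Gbp3 had a log2 ratio of 5.85 (5.57 to 6.15), Iigp1 5.38 (5.15 to 5.62), Gbp7 5.07 (4.78 to 5.36), Tgtp1 4.61 (3.82 to 5.53), Gbp2 3.85 (3.67 to 4.04) and Irgm2 2.68 (2.16 to 3.25). Gbp5 and Tgtp2, with 288 and 490 reads in the pulldown and 0 in whole-cell RNA, were at least 82.0-fold and 139-fold higher by the limit of 3 reads per library. Gbp5, Tgtp1 and Tgtp2 passed the minimum through the pulldown alone. Irgm1 had 0.33 (0.19 to 0.47) and was not called.

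In AF357425-Low, 4 of 6 measured members were higher in the pulldown, against 2.58% of 12774 genes, with 62.4% lower and a median of -1.75. Iigp1 had a log2 ratio of 3.85 (3.50 to 4.23), Gbp7 3.70 (3.22 to 4.22), Gbp3 3.02 (2.65 to 3.41) and Irgm2 2.43 (1.55 to 3.44), the last through its pulldown reads alone. Gbp2 had 0.85 (0.57 to 1.14) and was not called. Irgm1 was lower, at -1.26 (-1.45 to -1.07), by library totals, but its ratio lay above 0 under each of the other scalings, between 0.05 and 0.47. Those scalings move every gene upward by 1.31 to 1.73 in AF357425-Low and by 1.45 to 2.13 in AF357425-High. Against the median gene, Irgm1 therefore stood on the higher side in both states.

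The make-up of the GTPase reads differed between the kinds of library. Irgm1 gave 4.31% (4.06 to 4.57) and 10.4% (9.40 to 11.5) of the reads of the 10 genes in the pulldowns of AF357425-High and AF357425-Low cells, against 52.8% (50.2 to 55.5) and 65.8% (62.8 to 68.7) in their whole-cell RNA. Iigp1 went the other way, with 29.8% and 36.1% in the pulldowns of AF357425-High and AF357425-Low cells, against 11.0% and 6.59% in their whole-cell RNA. Gbp3 had 27.0% and 19.9% in the same pulldowns, against 7.18% and 6.49% in the same whole-cell libraries. Gbp2 took 16.9% and 9.94% in the pulldowns and 18.0% and 14.6% in whole-cell RNA, in the same order of states. With Irgm1 left out, the sum of the other 9 genes had a whole-cell ratio of 1.75-fold (1.54 to 2.0) and a pulldown ratio of 10.2-fold (9.81 to 10.6).

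**Figure D3:**
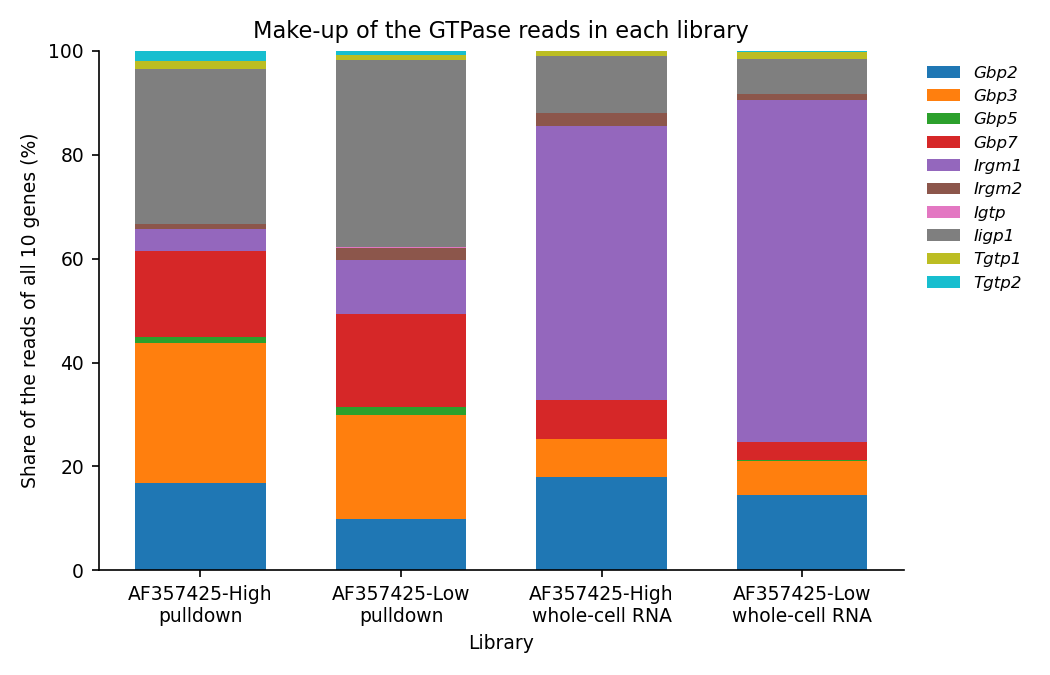
Share (%) of the reads of all 10 genes that each gene gave in the 4 libraries, from 24872 and 3442 reads in the pulldowns of AF357425-High and AF357425-Low cells and from 1378 and 1017 reads in their whole-cell RNA. Irgm1 fills over 50% of both whole-cell bars, while Iigp1 and Gbp3 are the largest parts of both pulldown bars.

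Other genes of the GTPase families were described by lists of their own. Of 7 further GBP genes, the 2 that were measured in the pulldown, Gbp6 (log2 ratio 3.91, 3.36 to 4.51) and Gbp9 (3.54, 3.20 to 3.89), were higher in AF357425-High. Of 8 further IRG genes, 5 of 6 measured were higher, with a list median of 3.12: Gm12185 (4.70, 3.62 to 6.04, through the AF357425-High library alone), Gm4951 (3.88, 3.52 to 4.26), F830016B08Rik (3.70, 3.51 to 3.89), 9930111J21Rik2 (2.55, 2.41 to 2.70) and 9930111J21Rik1 (2.23, 1.82 to 2.66). Irgq, a divergent relative in the family, had 0.30 (0.14 to 0.46). Of the Mx and very large inducible GTPases 4 of 4 measured were higher, namely Mx1, which carries a disabling deletion in C57BL/6 (4.51, 4.03 to 5.02), Gm4070 (3.72, 2.95 to 4.60), Gvin1 (3.46, 2.46 to 4.64) and Mx2 (1.48, 1.19 to 1.78). Gm4070 and Gvin1 passed the minimum through AF357425-High alone, and Mx2 missed the line with library totals (1.19, 0.90 at its lower end). Constitutive members of the dynamin superfamily (dynamins, atlastins and mitofusins) gave 0 of 10, with a median of -0.10 and a range of -0.62 to 0.92.

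**Figure D4:**
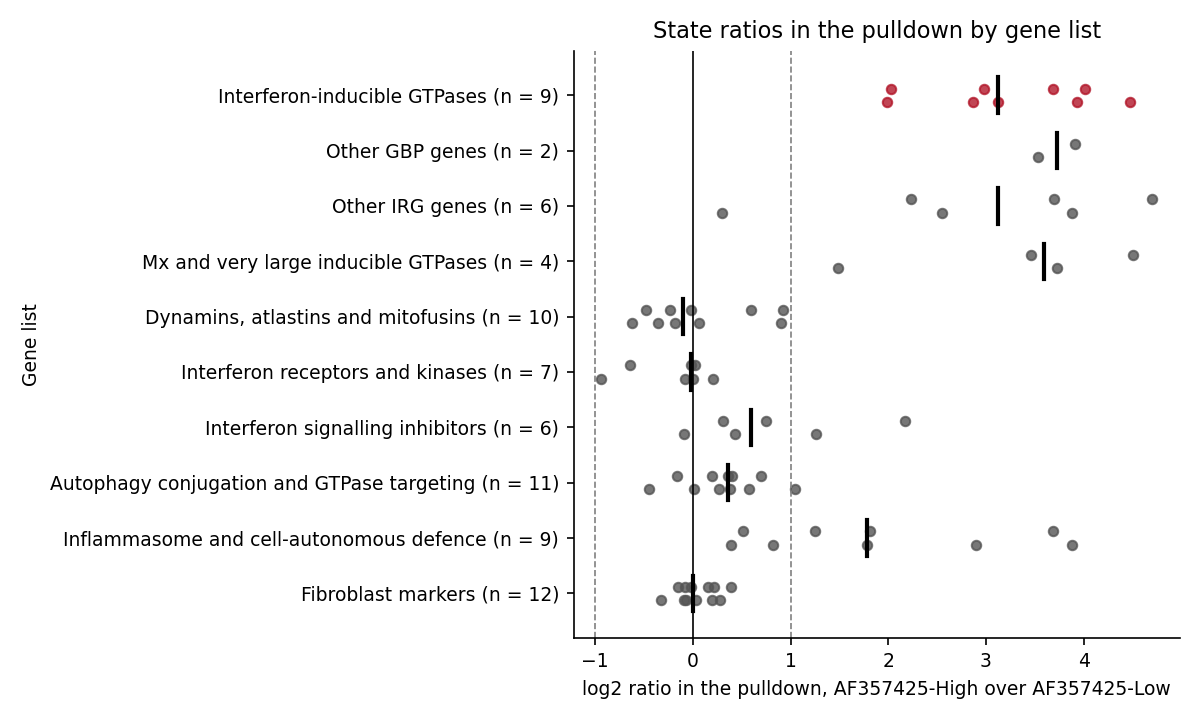
Pulldown log2 ratio of AF357425-High over AF357425-Low for every measured gene of 10 lists, with n measured in brackets, black bars at list medians and dashed lines at 2-fold; the members are red. The members and the other GBP, IRG and Mx genes have medians from 3.12 to 3.72, while the dynamins, the receptors and the fibroblast markers centre between -0.10 and 0.01.

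The pathway that induces these genes was followed from ligand to inhibitor in the pulldown. None of the 7 interferon ligand genes was measured: Ifna4, a type I interferon, had 30 reads and 0 reads in the pulldowns of AF357425-High and AF357425-Low cells (at least 13.2-fold higher at a limit of 3 reads), Ifnb1 had 10 and 2 reads, and Ifng, Ifnk, Ifnl2 and Ifnl3 had 0 reads in all 4 libraries. Ifna4 has near-identical paralogs, so its reads are uncertain. In whole-cell RNA, Ifna4 and Ifnb1 had 0 reads in both states. None of the 7 receptor and kinase genes was called, with a median of -0.02, the highest ratio in Ifnar2 (0.21, -0.10 to 0.51) and the lowest in Jak2 (-0.94, -1.09 to -0.79). With library totals Jak2 was called lower, at -1.23 (-1.38 to -1.09).

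Among the transcriptional regulators of the pathway, those higher in AF357425-High included Nlrc5, the transactivator of class I antigen presentation (3.40, 2.88 to 3.96), Irf7, the amplifier of type I interferon (3.30, 2.98 to 3.63) and Stat2 (1.38, 1.26 to 1.49). The lowest ratio was that of Irf3 (-0.77, -1.39 to -0.18). Of 6 measured inhibitors of interferon signalling, Usp18 (2.17, 1.92 to 2.43) and Socs3 (1.26, 1.02 to 1.51) were higher and the median was 0.59. Stat2 and Socs3 missed the line with library totals, at 1.08 and 0.97, and Socs3 also with the totals that leave out abundant genes.

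Partners of the GTPases were split. The autophagy conjugation genes, whose products direct GBPs and IRGs to vacuoles, gave 0 of 11, with a median of 0.36 and the highest ratio in Gabarapl1 (1.05, 0.86 to 1.23). Of the 9 measured inflammasome and cell-autonomous defence genes 6 were higher, where 3.43% of all genes measured in the pulldown were. They were the ubiquitin-conjugating enzyme gene Ube2l6 (3.88, 3.43 to 4.36), the antiviral Rsad2 (3.69, 3.51 to 3.87), the ubiquitin-like modifier Isg15 (2.90, 2.77 to 3.04), the ubiquitin ligase gene Rnf213 (1.82, 1.77 to 1.86), the antibody receptor Trim21 (1.78, 1.63 to 1.94) and the galectin Lgals8 (1.25, 1.12 to 1.39). Lgals8 missed the line with library totals, at 0.96, and also with totals without mitochondrial ribosomal RNA, where 5 of the 9 were higher. The lowest was Casp4, which encodes caspase-11 in mice, with 0.39 (0.04 to 0.74). Gsdmd was not called either, at 0.52 (0.19 to 0.84). The inflammasome genes Casp1, Aim2, Nlrp3 and Pycard were under the minimum in the pulldown. Of 10 common reference genes only B2m, which also belongs to class I antigen presentation, was higher (1.22, 1.17 to 1.28; 0.93 with library totals); their median was 0.04. In whole-cell RNA no gene of these lists was past the line.

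Markers of the cultured cells and of other cell types were set beside these values. The 12 fibroblast markers summed to 3310 and 3951 CPM in the pulldowns of AF357425-High and AF357425-Low cells and to 10514 and 12033 CPM in their whole-cell RNA. None of the 12 was at 0 in any library or called between the states in the pulldown, where their median was 0.01. The 10 macrophage and leukocyte markers summed to 6.50 and 2.77 CPM in the pulldowns of AF357425-High and AF357425-Low cells, and to 13.7 and 13.3 CPM in their whole-cell RNA. The macrophage markers Adgre1 and Tyrobp were at 0 in all 4 libraries. The pan-leukocyte marker Ptprc, under the minimum throughout, had 3 and 2 reads in the pulldowns of AF357425-High and AF357425-Low cells. In their whole-cell RNA it had 3 and 13 reads. Only Mpeg1 was measured between the pulldowns (3.53, 2.67 to 4.53, on 105 against 12 reads, through AF357425-High alone). In whole-cell RNA 4 were measured and none called. These were Cd14 (110 and 107 reads in AF357425-High and AF357425-Low cells), Cd68 (71 and 56), Lyz2 (53 and 50) and Csf1r (52 and 50). Their pulldown reads, under the minimum, went both ways: Cd14 28 and 4, Lyz2 12 and 4, Cd68 10 and 24, Csf1r 10 and 24. The 10 lymphocyte markers summed to at most 0.108 CPM, with 6 at 0 in all libraries. The 7 endothelial markers summed to 3.44 and 6.04 CPM in these pulldowns and the 7 keratinocyte markers to 1.82 and 3.02 CPM, against 8.06 and 8.21 CPM and 4.03 and 3.92 CPM in the whole-cell RNA of the same states. Most of these reads came from 1 gene of each list. In the pulldowns of AF357425-High and AF357425-Low cells, Tek gave 77 and 159 of the 89 and 168 endothelial reads. Trp63 gave 40 and 79 of the 47 and 84 keratinocyte reads in the same order. The part of other cell types in the GTPase values was not tested.

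The members sit in 3 stretches of chromosomes 3 and 11, apart from Iigp1 on chromosome 18, and the genes around them were chosen after values had been seen. Around Gbp5, Gbp7, Gbp3 and Gbp2 (chromosome 3, 142496934 to 142638008) the 3 other genes measured within 200 kb, Pdlim5, Gtf2b and Pkn2, had pulldown log2 ratios between -0.24 and 0.13 and none was called. Around Irgm1, Tgtp1 and Tgtp2 (chromosome 11, 48865245 to 49064212), outside the family lists, 4 of 8 measured genes were higher and 1 lower. Over all genes measured in the pulldown, 3.43% were higher and 2.9% lower. The higher ones were Gm5431 (4.21, 2.77 to 6.13, through AF357425-High alone), Ifi47 (3.34, 2.66 to 4.09), the olfactory receptor gene Olfr56 (2.6, 1.6 to 3.75) and the proteasome activator relative Psme2b (1.70, 1.44 to 1.97). Ifi47 is itself an IRG gene that the family lists leave out, so it is not an unrelated neighbour. Gm5431 lies between Irgm1 and Tgtp1, and whether it too belongs to the family was not checked. Ifi47 and Olfr56 also passed the minimum through AF357425-High alone. The span of Psme2b overlaps that of the IRG gene 9930111J21Rik1, so its reads are uncertain without the strand setting. Rack1, a ribosomal scaffold gene, was lower (-1.84, -2.19 to -1.50). Around Igtp and Irgm2 (chromosome 11, 58199556 to 58222783) none of 4 measured genes was called, with ratios from -0.54 to 0.55.

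**Figure D5:**
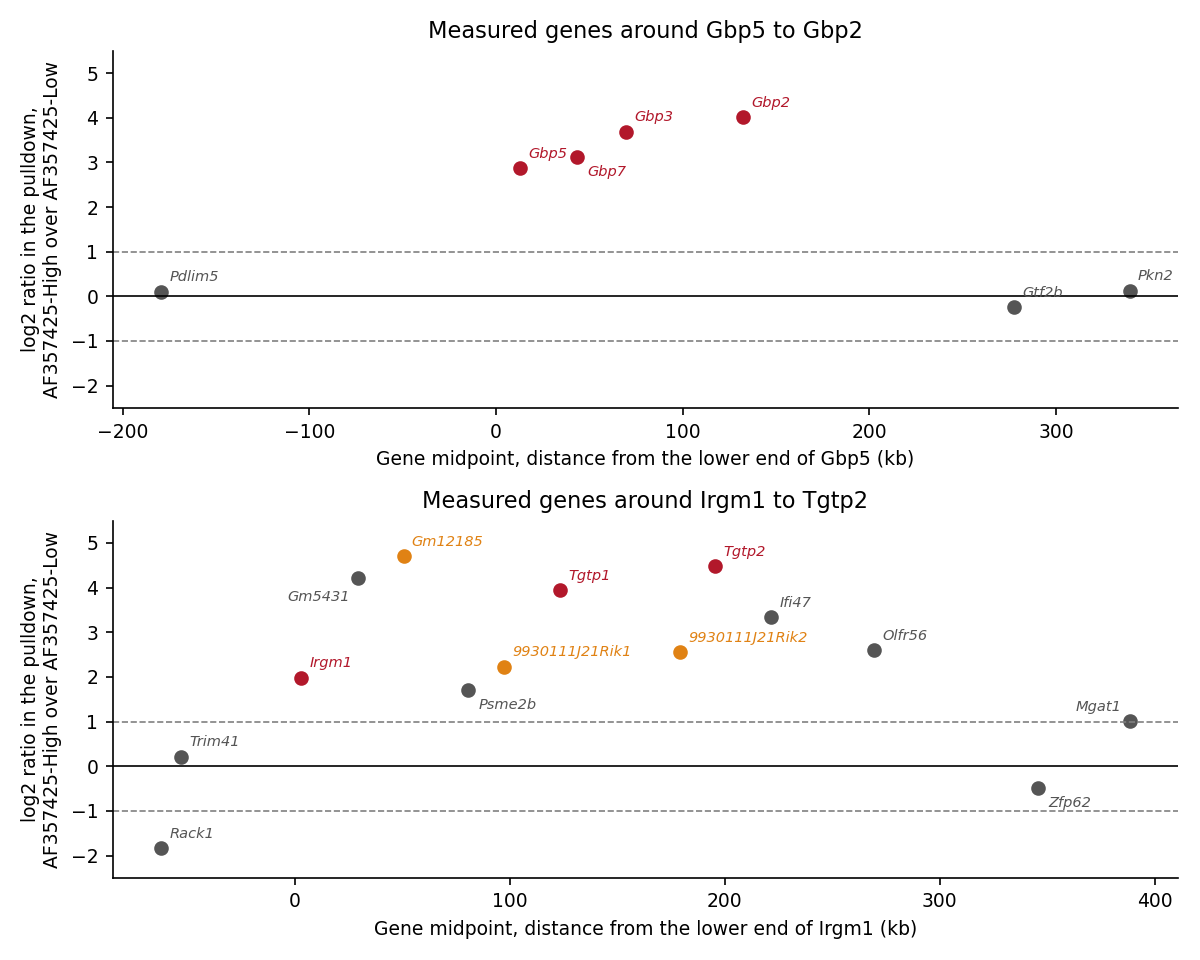
Pulldown log2 ratio of AF357425-High over AF357425-Low against distance in kb from the lower end of Gbp5 (top) and of Irgm1 (bottom), for genes measured within 200 kb; members are red, other listed IRG genes orange, other genes grey, and dashed lines mark 2-fold. The Gbp genes stand between 2.87 and 4.02 with flanking genes near 0, while in the lower panel 4 grey genes lie clear of the upper line, at 1.70 to 4.21, and Mgat1 lies on it. Ifi47, an IRG gene outside the lists, is among these grey genes, and whether Gm5431 belongs to the family was not checked.

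Genes with the pattern most like that of the members were sought by the distance of their centred log2 CPM (0.1 CPM added) over the 4 libraries from the median profile of the 9 members with at least 100 reads, among 12612 other genes. The nearest were Trim30a (distance 0.325), a tripartite-motif gene, Gm42898 (0.418), Ifit3 (0.463), Ifit1 (0.479) and Gbp6 (0.523). Ifit3 and Ifit1 encode interferon-induced proteins that bind or help bind viral RNA. Trim30a had 1975 and 254 reads in the pulldowns of AF357425-High and AF357425-Low cells, and 46 and 27 reads in their whole-cell RNA. All 5 lay closer to that profile than any member, from Gbp3 at 0.698 to Irgm1 at 4.40. The measure rests on 4 libraries, all of which each gene shares.

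The promoter letters were also set beside the pulldown ratios of genes other than the members. Of 264 measured genes with ISRE letters 44 were higher (16.7%), against 191 of 7838 without them (2.44%), and the median log2 ratios were 0.25 and -0.03. Of 576 genes with GAS letters 15 were higher (2.6%), against 220 of 7526 without them (2.92%). Of 24 genes with both sets of letters 4 were higher (16.7%), against 231 of 8078 others (2.86%). The minimum is a mean over both pulldowns, so the genes called higher can include some that passed it through AF357425-High alone. These shares are counts over genes of the same 2 libraries, and a part of the letters in the difference was not tested.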

How the data were processed

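RNA from mouse ear fibroblasts was sequenced on DNBseq, from whole-cell lysates and from a fibrillarin pulldown depleted of ribosomal RNA, per the labels' protocols. The authors deposited whole-number read counts per Ensembl gene in a table for each kind of library. Per the submitters' processing notes, cutadapt 2.4, STAR 2.6.0c, HTSeq 0.9.1 and StringTie 1.3.4 were used with GRCm38; its annotation and strand setting are not stated in these sources. The summary lines of HTSeq were left out of library sizes: 50.0% and 54.6% of fragments were assigned to genes in the pulldowns of AF357425-High and AF357425-Low cells, and 55.0% and 56.2% in their whole-cell RNA, and 9.38%, 8.54%, 1.05% and 1.09% were ambiguous between genes.

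Symbols were matched to 55450 of 55536 identifiers, and positions and promoters came from RefSeq (GRCm38.p6). The states were compared within a kind of library after TMM scaling (edgeR 4.0.16; factors 0.903 and 1.11 for the pulldowns of AF357425-High and AF357425-Low cells, 1.02 and 0.978 for their whole-cell RNA), and pulldown with whole-cell RNA by library totals. Intervals of ratios of 2 libraries are exact (95%); that of the change over 4 libraries is a normal approximation on the log scale. A measured gene has a mean of at least 1 CPM, a change needs 10 reads in each library, and a call needs the whole interval beyond 2-fold. The members and the gene lists were chosen with earlier results of these data known. All members are named. List genes are named where past the line, at either end of their list or at 0. Macrophage and leukocyte markers are also named by their reads, after values had been seen. The inflammasome genes that were not called or not measured were likewise named after values had been seen. The 5 nearest genes are named for likeness, and neighbouring genes were named after their values had been seen. Alternatives were library totals, DESeq2 median of ratios (1.42.0), totals without the 20 most abundant genes or without mitochondrial ribosomal RNA, a 1.5-fold line, no minimum, a 5 CPM minimum, and Tgtp1 and Tgtp2 as 1 sum. The code was tested on simulated data. The counts of one list, of transcriptional regulators, are not reported here.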

Additional observations from a re-analysis of the deposited data

Results flagged for a closer look

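Tgtp1 had a log2 ratio of AF357425-High over AF357425-Low of 3.94 in the pulldown and of -0.30 in whole-cell RNA, on 13 against 15 whole-cell reads. It was singled out because the direction differed between the kinds of library, with 1 library on each side; the difference between the kinds of library was not tested over replicates, its interval of 3.04 to 5.42 around a change of 4.23 covers counting error only, and the whole-cell interval of -1.49 to 0.87 holds 0.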

How the results depend on the processing

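The 9 pulldown calls between the states held under every scaling, at a 1.5-fold line, without a minimum and at a 5 CPM minimum, and they were 8 with Tgtp1 and Tgtp2 as 1 sum. In whole-cell RNA the count past the line was 2 at a 1.5-fold line, in place of 0, and 0 under the other alternatives. In AF357425-Low pulldown over whole-cell RNA, Irgm1 turned from -1.26 to 0.17 with TMM, 0.47 with median of ratios, 0.0602 without the 20 most abundant genes and 0.0523 without mitochondrial ribosomal RNA. Under these 4 scalings Irgm1 passed the line upward in AF357425-High (1.78 to 2.46), and Gbp2 did so in AF357425-Low (2.16 to 2.58). Library totals move all pulldown state ratios by -0.29 and totals without mitochondrial ribosomal RNA by -0.16. The change of Gbp7 missed the line under both (1.37 and 1.5). Leaving out a replicate was not possible with 1 library a group. No paired analysis was possible because each group has 1 library and the labels carry no replicate numbers. Whole-cell depth limits Gbp5, Igtp, Tgtp1 and Tgtp2, with at most 15 reads each.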
